A study of Mus musculus with 26 samples.

Results

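The genes described here are 9 transcription factor genes that divide the early neural tube into forebrain, midbrain and hindbrain: Otx1, Otx2, En1, En2, Gbx2, Pax2, Pax5, Pax8 and Egr2. They were chosen as a list of named genes and make up 9 of the 55291 gene symbols in each of 2 tables of RNA-seq counts. All 9 were looked up in all 26 libraries, which fall into 10 groups. Of the 9 genes, 6 had enough counts to be tested in the CTCF rescue lines (Otx1, Otx2, En1, En2, Gbx2 and Egr2) and 3 in the RNA truncation lines (Otx2, En2 and Gbx2). Pax2, Pax5 and Pax8 could be tested in neither.

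The study asked whether the RNA-binding region in zinc finger 1 (ZF1) of the chromatin loop protein CTCF is needed for cell type–specific loops and gene expression, in mouse ESCs and in NPCs made from them. The first table holds the CTCF rescue lines, which are E14 ESCs in which both endogenous CTCF alleles carry mAID-eGFP, with a mutant OsTIR1 at Rosa26 and an unused mCherry reporter at Hb9/Mnx1. A dox-inducible, Flag-Halo–tagged CTCF at Tigre was either WT or ΔZF1, and each of these 2 lines was a single clone. A difference between WT and ΔZF1 therefore cannot be told apart from one between the 2 clones. All 8 rescue libraries, the WT ones included, came from cells given 1 µM 5-Ph-IAA to degrade the endogenous CTCF and 1 µg/ml dox to express the rescue for 24 h. The 4 groups, with 2 libraries each, are the ESCs of the WT and the mutant rescue (ESC-WT, ESC-ΔZF1) and the NPCs made from either (NPC-WT, NPC-ΔZF1). The second table holds parental E14 cells (WT) and the Podxl pA and Grb10 pA lines, in which a homozygous eGFP cassette with a polyadenylation signal of SV40, after the first coding exon, ends the transcript early. Each of these was sequenced as ESCs and as NPCs with 3 libraries per group, without 5-Ph-IAA or dox. The pA lines came from single-cell clones, so truncation and clone cannot be told apart either. NPCs were differentiated for 2 days on laminin in N2B27 medium, and ESCs were kept in medium with LIF, CHIR99021 and PD0325901. The study calls its replicates biological, and the labels do not say whether the libraries of a group came from separate cultures, so p-values measure the spread between these libraries.

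In the embryo, Otx2 and Gbx2 are expressed on either side of the boundary between midbrain and hindbrain and restrain each other, and the boundary forms where their domains meet. The isthmic organizer at this boundary secretes Fgf8 and is marked by En1, En2, Pax2, Pax5 and Pax8, while Egr2 (Krox20) marks rhombomeres of the hindbrain. Otx2 and Gbx2 also act before there is a brain: Otx2 accompanies the exit of ESCs from the naive state and is expressed in visceral endoderm, and Gbx2 is a target of LIF signalling in ESCs.

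The rescue libraries held 6425179 to 28730435 reads assigned to genes and the truncation libraries 1907505 to 8845087, so a low gene is better measured in the former. Levels are given as CPM, counts scaled to the library's total after TMM normalization, and levels of different genes are compared only per kilobase of exon (RPKM). A count of 0 allows up to 3 counts, which is 0.106 to 0.459 CPM in a rescue library and 0.338 to 1.55 CPM in a truncation library and covers counting error only. Podxl was at 22.5 ± 1.72 CPM in NPC Podxl pA and 246 ± 13.6 CPM in NPC WT (SD, n = 3), and Grb10 was at 54.6 ± 4.14 CPM in NPC Grb10 pA and 795 ± 23.4 CPM in NPC WT. Chromosome 11 as a whole was lower in ΔZF1 than in WT (median log2 fold change of its genes -0.46 in ESCs and -0.56 in NPCs), and Otx1 is the member on that chromosome. Chromosome 8, which holds no member, was lower in Grb10 pA than in WT (median -0.49 in ESCs and -0.48 in NPCs). The 2 NPC-WT libraries stood apart from each other, with a chi-square of their counts of 63.1 per gene, against 2.92 to 6.37 for the other pairs of the rescue lines and 1.69 to 27.6 for pairs in the truncation lines, a measure that grows with depth. Results that rest on NPC-WT are therefore also given without either of its libraries, in which case the remaining one is assumed to vary like the other groups.

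The members lie on 8 chromosomes and, in GENCODE M21 on GRCm38 (the same build as the authors' mm10), only En1 and Gbx2 share one. Otx2 is at chr14:48657677-48673819 on the minus strand, Gbx2 at chr1:89927956-89931179 on the minus strand and En2 at chr5:28165694-28172166 on the plus strand. Since the counting ignored strand, reads from a member and an overlapping gene were not told apart. This touches Gbx2 most, since 946 of its 2177 exon bases (43.5%) also lie in exons of the antisense gene D130058E05Rik. Of the exon bases of Otx2, 3.65% are shared with the antisense Otx2os1, which had at most 4 counts in any library, and 3.98% with Gm49154, which had at most 1.

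RefSeq promoter windows on GRCm38.p6, from 250 bases before a transcription start to 50 after it, were at hand for 7 of the 9 members and 16 starts. Those of Gbx2 and of the most upstream Otx2 start are printed, since these are the genes whose domains meet at the boundary. Capitals mark CCCTC or its reverse complement GAGGG, the letters that give CTCF its name, and the homeobox core TAATTA, which reads the same on the opposite strand; the motifs share no bases. The first window is chr1:89931127-89931426 and the second chr14:48667595-48667894, both written along the minus strand.
Gbx2: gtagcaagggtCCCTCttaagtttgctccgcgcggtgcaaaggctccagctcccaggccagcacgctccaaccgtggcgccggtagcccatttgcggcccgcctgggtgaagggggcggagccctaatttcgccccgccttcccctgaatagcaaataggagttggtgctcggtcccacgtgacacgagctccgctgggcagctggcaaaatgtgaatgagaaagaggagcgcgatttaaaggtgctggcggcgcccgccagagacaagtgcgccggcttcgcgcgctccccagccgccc
Otx2: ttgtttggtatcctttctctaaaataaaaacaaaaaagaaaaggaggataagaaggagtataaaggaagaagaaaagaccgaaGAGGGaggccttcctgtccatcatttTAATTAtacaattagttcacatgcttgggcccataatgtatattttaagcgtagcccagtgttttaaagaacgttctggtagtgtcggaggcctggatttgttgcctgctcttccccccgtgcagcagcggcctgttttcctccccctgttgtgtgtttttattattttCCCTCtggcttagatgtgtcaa
The Gbx2 window holds CCCTC once and no TAATTA, and is 64.7% G and C. The Otx2 window holds CCCTC or GAGGG 2 times and TAATTA once, and is 41.7% G and C. CCCTC was found in 13 of the 16 windows of the members and in 66.0% of all 32851 windows in the RefSeq table. The 16 are not separate, since Egr2 has 5 of them and Otx2 4, some of which overlap and hold the same copy. The only windows of En1 and Pax5 held none. TAATTA was found in 2 of the 16, both at Otx2 starts, and in 5.29% of all windows.

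Per kilobase of exon, Gbx2, En2 and Otx2 were the members with the highest levels in 9 of the 10 groups, the exception being ESC Grb10 pA, where Pax8 (0.229 RPKM) was above Otx2 (0.138 RPKM). In ESC-WT, Gbx2 was at 7.39 ± 0.523 RPKM and En2 at 6.90 ± 0.776 RPKM (SD, n = 2), with overlapping libraries, and Otx2 was at 0.606 ± 0.192 RPKM. In NPC-WT, Otx2 was the highest of the 3, at 1.78 ± 0.010 RPKM, with Gbx2 at 1.42 ± 0.388 RPKM and En2 at 0.785 ± 0.264 RPKM. In NPC WT of the parental E14 cells, Gbx2 was at 17.5 ± 2.15 RPKM, Otx2 at 6.96 ± 0.691 RPKM and En2 at 3.78 ± 1.22 RPKM (SD, n = 3). The other 6 members had group means of at most 0.431 RPKM, the highest being En1 in NPC-WT.

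**Figure D1:**
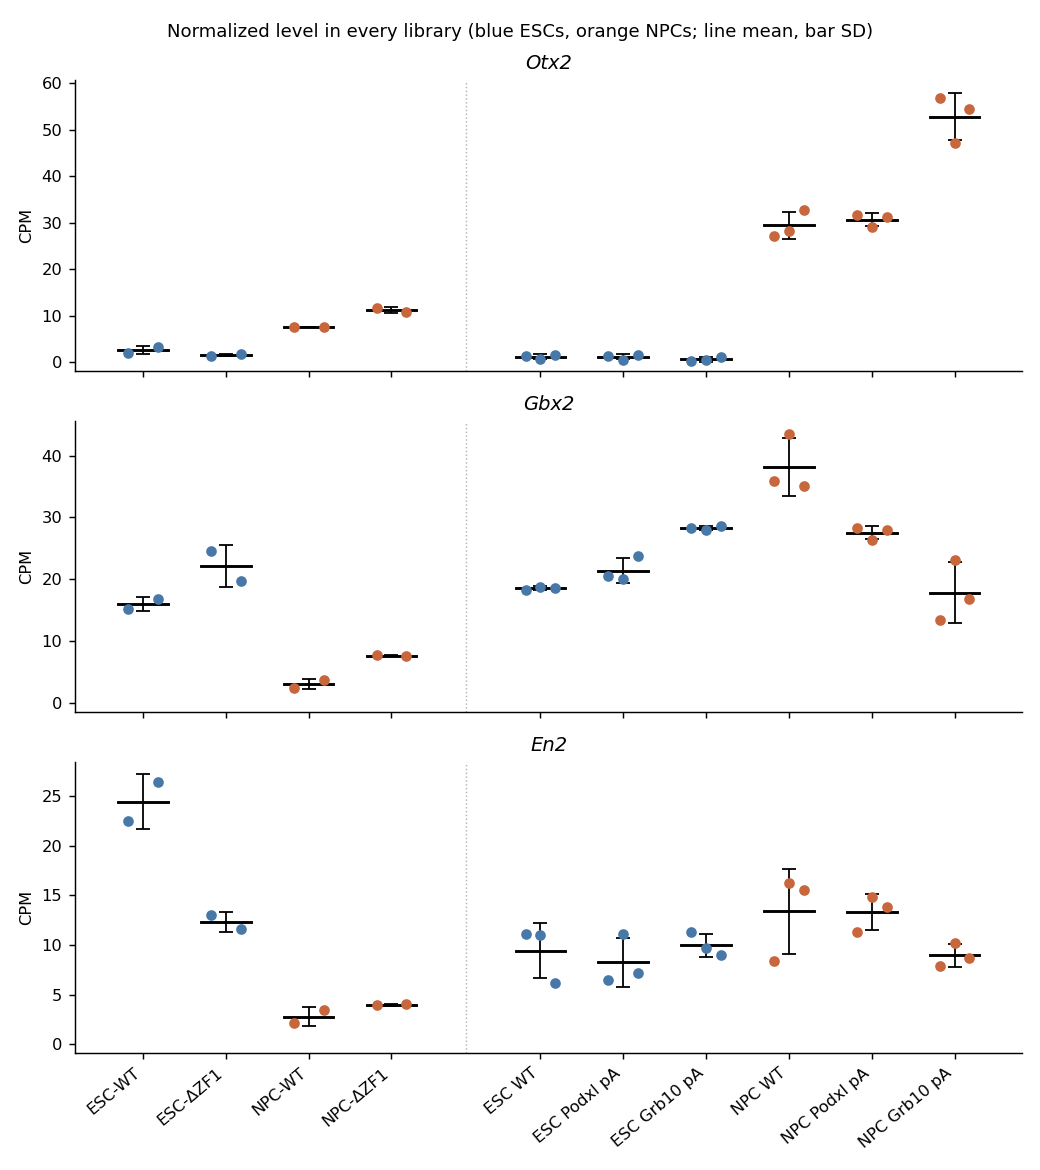
Level of Otx2, Gbx2 and En2 in CPM (vertical axes) in every library of the 10 groups (horizontal axis, rescue lines left of the dotted line and truncation lines right of it), with blue points for ESC libraries, orange points for NPC libraries, lines for group means and bars for SD. Otx2 was higher in all NPC groups than in all ESC groups of the same table, while Gbx2 and En2 were lower in NPCs of the rescue lines and Gbx2 was higher in NPC WT than in ESC WT.

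Differentiation of the WT lines was compared first, as the background for the mutants. Otx2 rose in NPCs of both WT lines, by far more in the parental cells, and the isthmic genes split between the lines: Gbx2 and En2 fell in NPC-WT, whereas Gbx2 rose in NPC WT. In NPC-WT relative to ESC-WT, 4 of the 6 members tested were dysregulated, 2 up and 2 down, beside 41.9% of all genes tested. The rise of Egr2, which was close to the limit of detection, was not called by DESeq2 (adjusted p = 0.0770). In NPC WT relative to ESC WT, 2 of 3 were dysregulated, both up, beside 32.8% of all genes. The tables were normalized separately and the lines differ in genotype and treatment, so the difference between the lines was not tested. In bulk RNA, fewer cells of a type and less RNA per cell cannot be told apart, which holds for every comparison. The 4 calls of members in NPC-WT held without either NPC-WT library, with log2 fold changes of 1.46 and 1.45 for Otx2, -2.13 and -2.69 for Gbx2, -2.84 and -3.54 for En2, and 2.84 and 3.08 for Egr2 without replicate 1 and without replicate 2.

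Otx2, the forebrain and midbrain factor, was at 1.99 and 3.13 CPM in ESC-WT and at 7.50 and 7.56 CPM in NPC-WT. No NPC library was near the ESC range, and the log2 fold change was 1.47 ± 0.24 (SE, edgeR adjusted p = 0.00065). In the parental cells Otx2 had 4 to 6 counts per library in ESC WT, or 0.685, 1.31 and 1.55 CPM, and 27.2, 28.3 and 32.7 CPM in NPC WT. The log2 fold change there was 4.72 ± 0.27 (edgeR adjusted p = 5.1e-14).

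Gbx2, the hindbrain-side factor of the boundary, was at 15.3 and 16.9 CPM in ESC-WT and at 2.50 and 3.70 CPM in NPC-WT. The groups were far apart, with a log2 fold change of -2.44 ± 0.22 (edgeR adjusted p = 1.5e-05). In ESC WT it was at 18.3, 18.6 and 18.8 CPM and in NPC WT at 35.1, 35.9 and 43.5 CPM, so that every NPC library was above every ESC library. The log2 fold change was 1.06 ± 0.15 (edgeR adjusted p = 1.8e-06). Counts on the antisense D130058E05Rik fell in NPC-WT as well (log2 fold change -1.61 ± 0.27, adjusted p = 0.00090), while in NPC WT they went the other way from Gbx2 without passing the test (-0.40 ± 0.26, adjusted p = 0.211).

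En2, a marker of the midbrain and hindbrain boundary, was at 22.5 and 26.4 CPM in ESC-WT and at 2.12 and 3.44 CPM in NPC-WT. Its log2 fold change of -3.21 ± 0.23 was the largest fall among the members in NPC-WT (edgeR adjusted p = 3.4e-06). In the parental cells En2 was at 6.21, 10.96 and 11.1 CPM in ESC WT and at 8.42, 15.5 and 16.2 CPM in NPC WT. The groups overlapped, and the log2 fold change of 0.48 ± 0.23 did not pass the test (adjusted p = 0.0959). Without NPC WT replicate 1 it was 0.68 and passed (adjusted p = 0.016).

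The genes of the neighbouring regions were counted from lists of 17 forebrain genes, 10 midbrain and isthmus genes, 10 hindbrain genes and 9 paralogs and cofactors of the members. The hindbrain list was shortened after its values were seen, so its counts are a description. In NPC-WT relative to ESC-WT, where 41.9% of all genes were dysregulated, 5 hindbrain genes rose and 2 fell of 9 tested. Their median log2 fold change was 1.55, beside 0.01 over all genes. Hoxb1, which patterns rhombomeres, and Irx3 rose, with log2 fold changes of 4.02 ± 0.28 and 2.85 ± 0.36 (edgeR adjusted p = 3.1e-06 and 0.00014), and Epha4, a receptor that helps to keep rhombomeres apart, fell (-2.60 ± 0.12, adjusted p = 5.2e-07). Of the 8 midbrain and isthmus genes tested, 2 rose and 2 fell. Lmx1b, an isthmus and roof plate factor, rose (2.75 ± 0.20), while Fgf17, a ligand of the isthmic organizer, and Cnpy1, an Fgf signalling gene of the isthmus, fell (-2.69 ± 0.23 and -3.24 ± 0.24, edgeR adjusted p at most 1.2e-05 for these). In the forebrain list, 3 of 8 genes rose (Lhx2, Lhx5 and Emx2) and Hesx1 fell.

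In NPC WT relative to ESC WT, where 32.8% of all genes were dysregulated, 6 of 9 hindbrain genes rose and 2 fell. Hoxb1 (6.68 ± 0.55) and Irx3 (2.23 ± 0.33) rose and Epha4 fell (-1.83 ± 0.15), with edgeR adjusted p of at most 3.6e-06. Hoxb1 had a mean of 0.073 CPM in ESC WT and 10.7 CPM in NPC WT. The former is below what a count of 0 allows, so the size of that rise is uncertain. Of the midbrain and isthmus list, 3 of 4 genes tested rose and 1 fell. Fgf17 rose here (2.51 ± 0.30), and Cnpy1 fell (-1.23 ± 0.21), with edgeR adjusted p of at most 2.6e-05. The median over the 9 hindbrain genes was 1.00 on the log2 scale, beside -0.01 over all genes. In the forebrain list 1 of 4 genes tested was dysregulated, Pax6, which rose (1.63 ± 0.35, adjusted p = 0.0004). Among the paralogs and cofactors, Egr1 and Nab1 rose in NPCs of both lines, and Nab2, an Egr corepressor, fell in NPC WT.

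Markers of other cell types moved in the same comparisons, in which 41.9% (NPC-WT) and 32.8% (NPC WT) of all genes were dysregulated. Of 9 naive pluripotency markers, 9 fell in NPC-WT, and in NPC WT 8 fell and 1, Dppa3, rose. Of 4 markers of the formative epiblast, where Otx2 is also expressed, 3 rose and 1 fell in NPC-WT, and 4 rose in NPC WT. Their summed level was 229 to 246 CPM in ESC-WT and 285 to 368 CPM in NPC-WT, and 141 to 151 CPM in ESC WT and 760.5 to 789.7 CPM in NPC WT. Of the extraembryonic endoderm markers, 8 of 12 tested rose and 1 fell in NPC-WT, and 10 of 10 rose in NPC WT. Their summed level went from 181 to 235 CPM in ESC-WT to 389 to 394 CPM in NPC-WT, and from 86.1 to 105 CPM in ESC WT to 726 to 979 CPM in NPC WT. Markers of surface ectoderm, placode and neural crest summed to 208 to 287 CPM in ESC-WT and 2938 to 4257 CPM in NPC-WT, but only to 203 to 225 CPM in NPC WT. Of the neural progenitor markers, 3 of 5 tested rose in NPC-WT (Sox1, Nes and Zic1) and 2 of 4 in NPC WT (Sox1 and Sox3), and none fell. Their summed level was similar in the NPCs of both lines, at 105 to 144 CPM in NPC-WT and 109 to 128 CPM in NPC WT. The means were 45.5 CPM in ESC-WT and 38.3 CPM in ESC WT. Sox1, which defines early neural progenitors, rose in both lines, to 16.8 and 22.0 CPM in NPC-WT and to between 74.1 and 83.8 CPM in NPC WT. The neural markers Hes5 and Fabp7 were at 0 in NPC-WT, as in ESC-WT. The part of these markers in the results on the members was not tested.

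**Figure D2:**
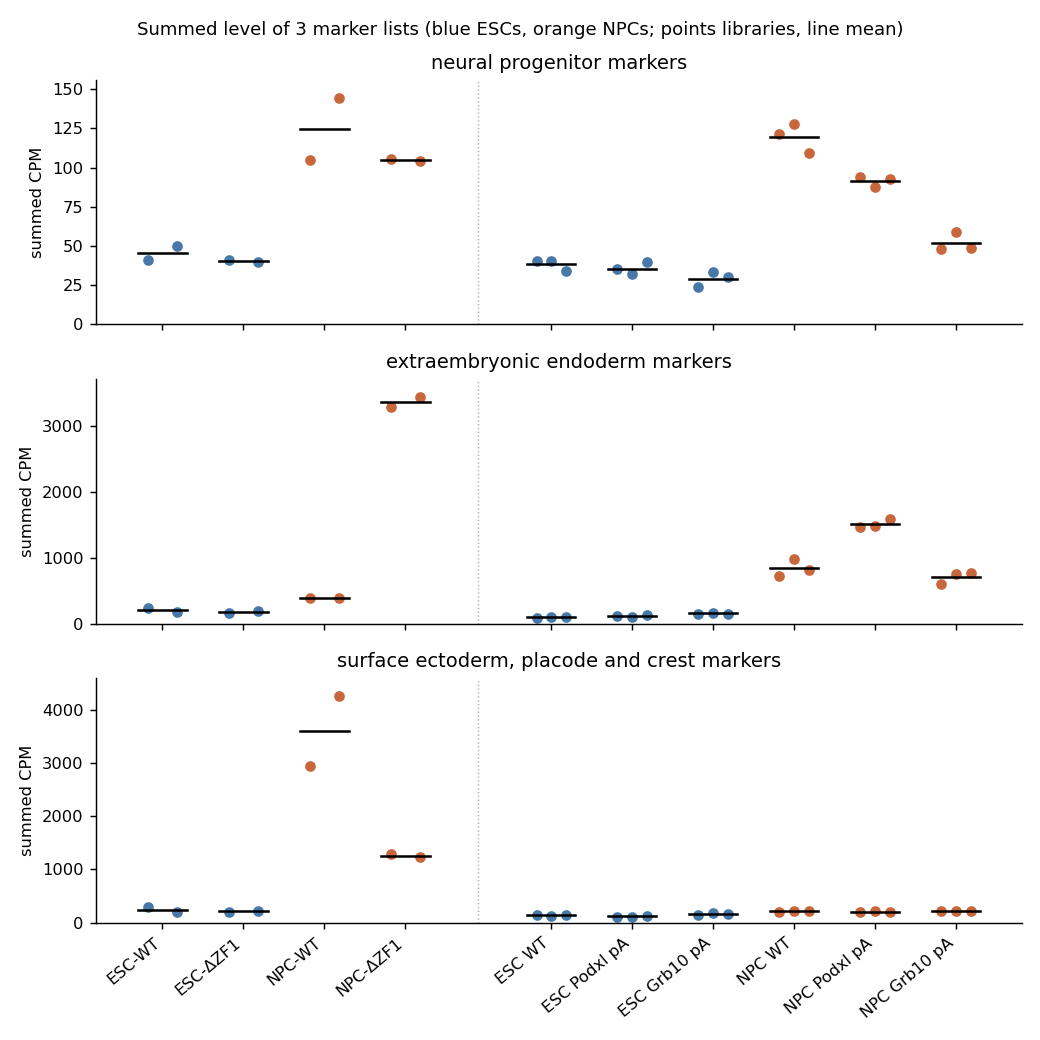
Summed level in CPM (vertical axes) of neural progenitor, extraembryonic endoderm and surface ectoderm, placode and crest markers in every library (points, blue for ESCs and orange for NPCs) of the 10 groups (horizontal axis), with lines for group means. The endoderm markers are highest in NPC-ΔZF1, at 3295 to 3445 CPM, and the surface ectoderm, placode and crest markers in NPC-WT.

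In NPC-ΔZF1 relative to ESC-ΔZF1, Otx2 and Egr2 rose and Gbx2 and En2 fell, so that 4 of 6 members were dysregulated, beside 37.3% of all genes. DESeq2 did not call the rise of Egr2 (adjusted p = 0.213). Otx2 went from 1.395 and 1.76 CPM to 10.7 and 11.6 CPM (log2 fold change 2.81 ± 0.23, edgeR adjusted p = 8.2e-06). Gbx2 went from 19.8 and 24.5 CPM to 7.61 and 7.72 CPM (-1.53 ± 0.18, edgeR adjusted p = 0.0001), and En2 from 11.6 and 13.0 CPM to 3.91 and 4.05 CPM (-1.63 ± 0.21, 0.00014). None of these groups overlapped.

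With ΔZF1, En2 fell in ESCs and Gbx2 rose in NPCs. In ESC-ΔZF1 relative to ESC-WT, 1 of 6 members was dysregulated, beside 3.61% of all genes, and in NPC-ΔZF1 relative to NPC-WT, 1 of 6, beside 17.6% of all genes, a share of the members near that of all genes. NPC-WT serves in both its comparisons, to ESC-WT and to the mutant, which therefore share 2 libraries.

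En2 was at 22.5 and 26.4 CPM in ESC-WT and 11.6 and 13.0 CPM in ESC-ΔZF1, so that both mutant libraries were well below both WT libraries. The log2 fold change was -0.998 ± 0.196 (edgeR adjusted p = 0.0265). The call was lost when any 1 of the 4 libraries was left out (log2 fold changes between -1.08 and -0.85, adjusted p between 0.146 and 0.258). In NPCs, En2 was instead higher in NPC-ΔZF1 (3.91 and 4.05 CPM) than in NPC-WT (2.12 and 3.44 CPM). The log2 fold change of 0.59 ± 0.24 did not pass the test (edgeR adjusted p = 0.108). With any 1 of the 4 libraries left out it lay between 0.21 and 0.89, the highest being without NPC-WT replicate 2. The difference between the effects in NPCs and ESCs was 1.58 ± 0.31 on the log2 scale (edgeR adjusted p = 0.0268), the only member called in that contrast, beside 2.7% of all genes. Leaving out any library of ESC-WT, ESC-ΔZF1 or NPC-ΔZF1 ended that call, with adjusted p up to 0.167, and leaving out either NPC-WT library did not.

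Gbx2 was at 2.50 and 3.70 CPM in NPC-WT and at 7.61 and 7.72 CPM in NPC-ΔZF1. The mutant libraries lay close together and above the WT ones, with a log2 fold change of 1.36 ± 0.22, or 2.57-fold (edgeR adjusted p = 0.0025). The call held without any 1 of the 4 libraries (1.05 to 1.598, adjusted p at most 0.0271). Gbx2 in NPC-ΔZF1 remained below every ESC library of the rescue lines. In ESCs it was at 15.3 and 16.9 CPM in WT and 19.8 and 24.5 CPM in ΔZF1, a log2 fold change of 0.45 ± 0.19 that did not pass the test (adjusted p = 0.232), and the difference between the effects was 0.91 ± 0.29 (adjusted p = 0.137). With any 1 library left out that difference lay between 0.61 and 1.14, the highest being without NPC-WT replicate 2. The antisense D130058E05Rik was higher in NPC-ΔZF1 as well (log2 fold change 0.86 ± 0.26, adjusted p = 0.0424).

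Otx2 was at 7.50 and 7.56 CPM in NPC-WT and 10.7 and 11.6 CPM in NPC-ΔZF1. The groups did not overlap, but the log2 fold change of 0.57 ± 0.19 was just outside the threshold (edgeR adjusted p = 0.0584). It passed when every library had to have 10 counts (edgeR adjusted p = 0.0477). Under the other alternatives that left out no library, the edgeR or DESeq2 adjusted p reached 0.175. The log2 fold change was 0.56 without either NPC-WT library, and 0.50 to 0.62 without any 1 library of the 2 groups. In ESCs it lay the other way, at 1.99 and 3.13 CPM in WT and 1.395 and 1.76 CPM in ΔZF1 (-0.78 ± 0.29, adjusted p = 0.1804). The difference between the effects was 1.34 ± 0.34 on the log2 scale (edgeR adjusted p = 0.0767). It was 1.36 and 1.34 without NPC-WT replicate 1 and replicate 2, and 0.87 to 1.53 without any 1 library.

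**Figure D3:**
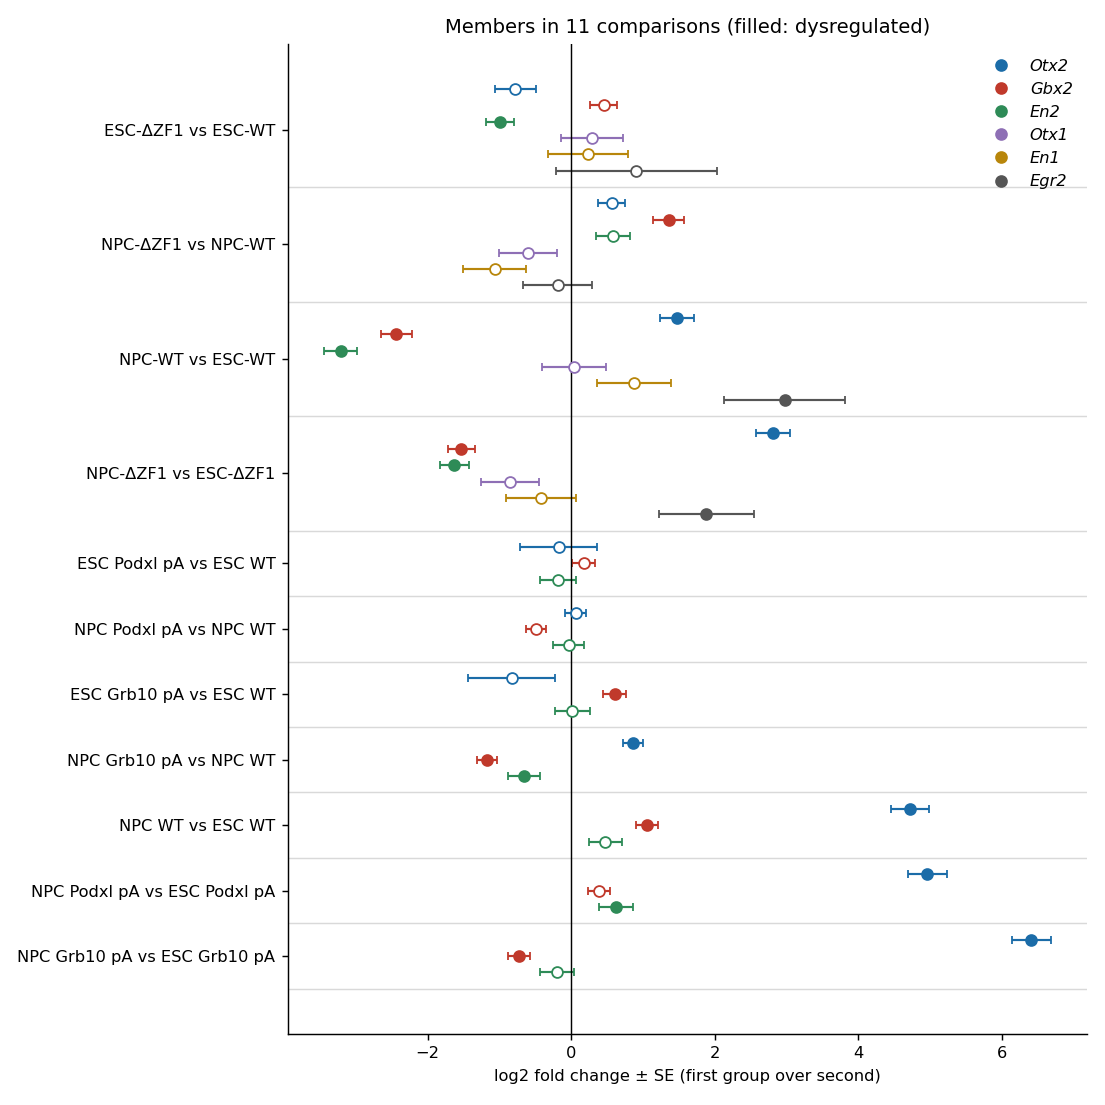
Log2 fold change of each member tested (horizontal axis, first group over second, bars for SE) in 11 comparisons (vertical axis), with filled points for members past both cutoffs and open points for the others. En2 is the only filled member in ESC-ΔZF1 relative to ESC-WT (-0.998) and Gbx2 the only one in NPC-ΔZF1 relative to NPC-WT (1.36), and none is filled for Podxl pA relative to WT.

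Some genes of the isthmus and hindbrain lists rose in NPC-ΔZF1 relative to NPC-WT, where 17.6% of all genes tested were dysregulated. Of 8 midbrain and isthmus genes tested, 3 rose and 1 fell, with a median log2 fold change of 0.97 beside 0.00 over all genes. The organizer ligands Fgf8 and Fgf17 rose, with Fgf8 at a mean of 0.213 CPM in NPC-WT and 2.24 CPM in NPC-ΔZF1 (3.27 ± 0.49, edgeR adjusted p = 0.0019), and Fgf17 at 2.18 and 6.41 CPM (1.63 ± 0.23, adjusted p = 0.0015). The NPC-WT mean of Fgf8 lay within the range that a count of 0 allows, so the size of its rise is uncertain. Fgf18 of the same list went the other way without passing the test (-0.89, edgeR adjusted p = 0.116). It lies on chromosome 11, and its log2 fold change was -0.32 once the median shift of that chromosome was taken off. Cnpy1 rose (1.01 ± 0.26, adjusted p = 0.0225), and Lmx1b fell by 0.52 on the log2 scale (adjusted p = 0.0495). Of 9 hindbrain genes, 4 rose and none fell, with a median of 0.72. Fgf3, a signal of rhombomeres, went from 1.07 to 8.43 CPM (3.11 ± 0.31, edgeR adjusted p = 0.00022), and Hoxb2 from 0.597 to 2.79 CPM (2.16 ± 0.34, adjusted p = 0.0025). Epha4 went from 18.4 to 55.2 CPM (1.59 ± 0.11, adjusted p = 4.3e-05), and Hoxb1 rose too. Relative to ESC-ΔZF1, however, Fgf17, Cnpy1 and Epha4 were called lower in NPC-ΔZF1, while Fgf8, Fgf3, Hoxb1 and Hoxb2 were called higher. In ESC-WT, Fgf17, Cnpy1 and Epha4 had means of 13.5, 10.3 and 111 CPM, above those of NPC-ΔZF1. In the forebrain list 1 of 8 genes was dysregulated, Hesx1, which rose (1.49 ± 0.36, adjusted p = 0.0179), and in the list of paralogs and cofactors 1 of 7, Egr4, which fell (-2.20 ± 0.56, adjusted p = 0.0211). Neither of these shares was above that of all genes. Without NPC-WT replicate 1 the midbrain and isthmus list had 3 genes up and 3 down and the hindbrain list 5 up, and without replicate 2 they had 4 up and 0 down, and 4 up. Hesx1 lost its call without replicate 1 (1.01, adjusted p = 0.110) and Lmx1b without replicate 2 (-0.37). Hoxb1 and Hoxb2 lie on chromosome 11, and their log2 fold changes were 2.01 and 2.72 once its median shift was taken off. In ESC-ΔZF1, edgeR called 0 genes of the midbrain and isthmus, hindbrain, and cofactor lists, with 1, 4 and 2 at an unadjusted p under 0.05, and Foxd1 of the forebrain list rose (1.58 ± 0.36, adjusted p = 0.0401). Of all genes tested, 3.61% were dysregulated in ESC-ΔZF1 relative to ESC-WT.

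Otx2 is also expressed in visceral endoderm, and extraembryonic endoderm markers rose in the same comparison, 12 of 12 tested, with a median log2 fold change of 2.97, and 12 of 12 also without either NPC-WT library. Their summed level was 389 to 394 CPM in NPC-WT and 3295 to 3445 CPM in NPC-ΔZF1. The surface ectoderm, placode and crest markers summed to 2938 to 4257 CPM in NPC-WT and 1231 to 1289 CPM in NPC-ΔZF1, where 5 of 12 fell and 1 rose. Of all genes tested, 17.6% were dysregulated in this comparison. The formative epiblast markers summed to 439 to 449 CPM in NPC-ΔZF1, with 1 of 4, Fgf5, called higher than in NPC-WT. Sox1 was higher in NPC-ΔZF1 (39.2 and 40.4 CPM) than in NPC-WT, with a log2 fold change of 1.05 ± 0.16 (edgeR adjusted p = 0.0019), and Nes was lower (-0.85 ± 0.17, adjusted p = 0.0079). Of the 5 neural progenitor markers tested, 2 rose (Sox1 and Zic1) and 1 fell (Nes). The part of these cell types in the changes of Gbx2, Otx2 and the regional lists was not tested.

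**Figure D4:**
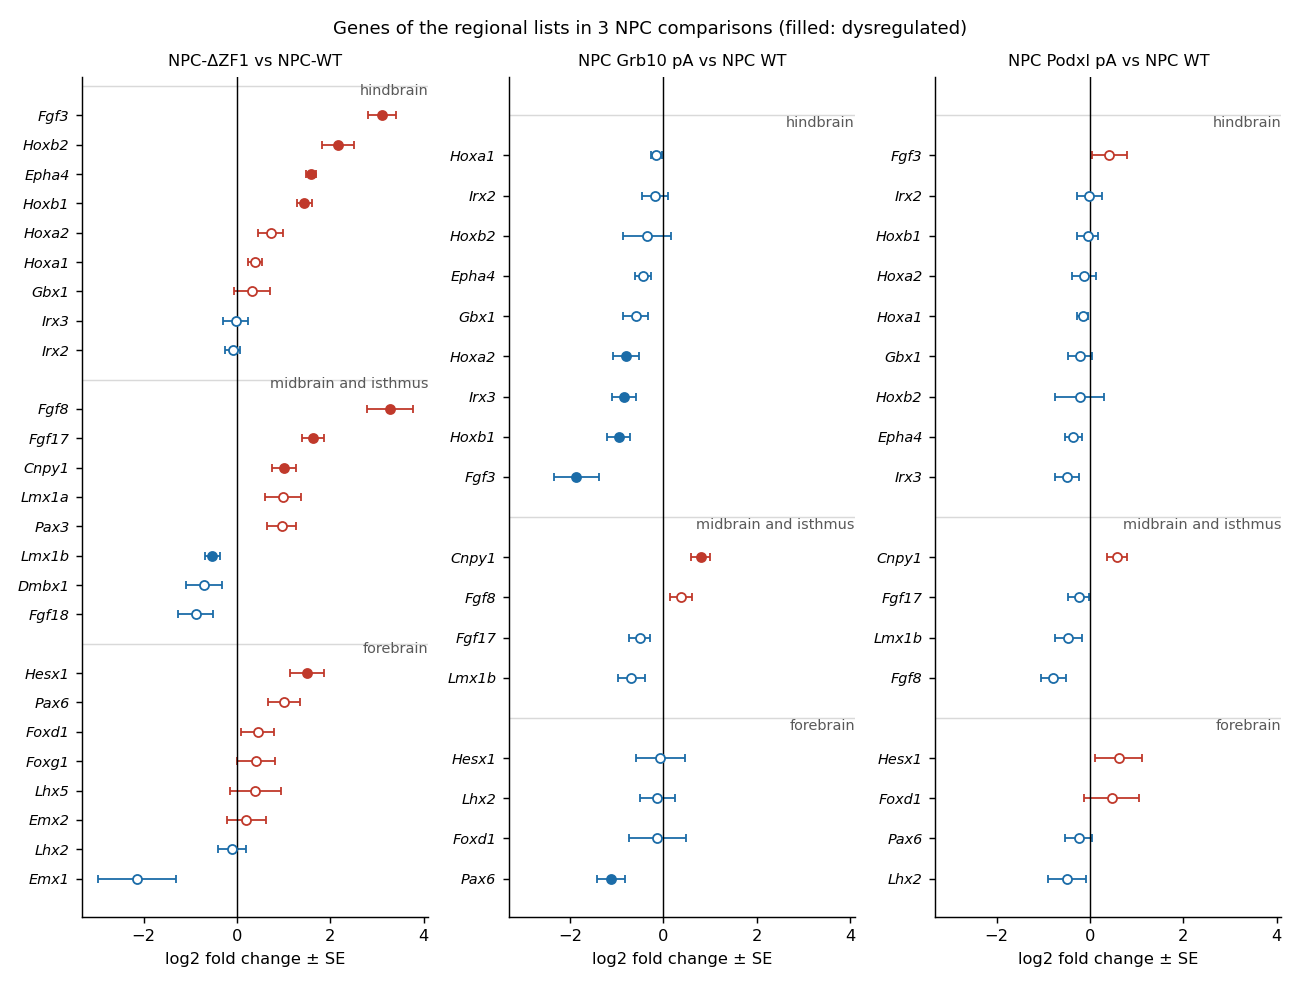
Log2 fold change (horizontal axes, bars for SE) of each tested gene of the forebrain, midbrain and isthmus, and hindbrain lists (vertical axes) in NPC-ΔZF1 relative to NPC-WT and in NPC Grb10 pA and NPC Podxl pA relative to NPC WT, in red above 0 and blue below it, with filled points for genes past both cutoffs. Of the hindbrain genes, 4 are filled and red for NPC-ΔZF1 and 4 are filled and blue for NPC Grb10 pA, and no gene is filled for NPC Podxl pA.

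The truncation lines ask what is lost when the RNA of Podxl or Grb10 is cut short. None of the 3 members tested passed the test with Podxl pA in ESCs or NPCs, and all 3 did with Grb10 pA in NPCs. All comparisons of pA lines in a cell state share the 3 WT libraries of that state.

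With Podxl pA, 0 of 3 members were dysregulated in ESCs, beside 0.339% of all genes, and 0 of 3 in NPCs, beside 0.55%. At an unadjusted p under 0.05, edgeR counted 0 members in ESCs and 1 in NPCs, and DESeq2 called 0 in either. Otx2 was at 29.0, 31.2 and 31.6 CPM in NPC Podxl pA, within the range of NPC WT (log2 fold change 0.06 ± 0.15, adjusted p = 0.929). En2 was at 11.3, 13.8 and 14.9 CPM (-0.03 ± 0.22, adjusted p = 0.980). Gbx2 was the member that stood apart, at 26.3, 28.0 and 28.3 CPM against 35.1 to 43.5 CPM in NPC WT, without overlap. Its log2 fold change was -0.49 ± 0.14 (edgeR adjusted p = 0.129), and it passed both cutoffs only when the fit held no other groups (-0.50, adjusted p = 0.0173). The difference between the effects in NPCs and ESCs was -0.67 ± 0.22 for Gbx2 (adjusted p = 0.271), and 0 of 3 members were called in that contrast, beside 0.098% of all genes. Sox1 fell in NPC Podxl pA (-0.63 ± 0.11, adjusted p = 0.0027), to between 48.9 and 52.4 CPM. Endoderm markers rose in 6 of 10 cases, with summed levels of 1472 to 1593 CPM against 726 to 979 CPM in NPC WT. Of the forebrain, midbrain and isthmus, hindbrain, and cofactor lists, edgeR called 0 genes, and 0, 2, 0 and 0 had an unadjusted p under 0.05.

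With Grb10 pA in NPCs, 3 of 3 members were dysregulated, beside 16.5% of all genes, with Otx2 up and Gbx2 and En2 down. Otx2 was at 47.1, 54.4 and 56.8 CPM against 27.2 to 32.7 CPM in NPC WT, without overlap (log2 fold change 0.86 ± 0.14, edgeR adjusted p = 4.9e-05). Gbx2 was at 13.5, 16.8 and 23.2 CPM against 35.1 to 43.5 CPM, again without overlap (-1.17 ± 0.15, edgeR adjusted p = 1.1e-06). En2 was at 7.88, 8.72 and 10.2 CPM and overlapped with NPC WT, whose replicate 1 was at 8.42 CPM (-0.65 ± 0.23, edgeR adjusted p = 0.0312). The calls of Otx2 and Gbx2 held without any 1 of the 6 libraries. That of En2 was lost with DESeq2 (adjusted p = 0.0955) and without NPC Grb10 pA replicate 1 or 3 or NPC WT replicate 2 or 3, with adjusted p up to 0.273.

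In ESCs, Gbx2 went in the opposite direction with Grb10 pA. Gbx2 was at 28.0, 28.3 and 28.7 CPM in ESC Grb10 pA and at 18.3 to 18.8 CPM in ESC WT, with little spread within either group. The log2 fold change was 0.61 ± 0.16 (edgeR adjusted p = 0.0086), and Gbx2 was the only one of 3 members called, beside 9.09% of all genes. The difference between the effects in NPCs and ESCs was -1.78 ± 0.21 on the log2 scale (edgeR adjusted p = 1.4e-05), again for 1 of 3 members, beside 5.9% of all genes. Otx2 had 1, 1 and 5 counts in ESC Grb10 pA and 4 to 6 in ESC WT, where a difference was not detectable at this depth (adjusted p = 0.405). Its difference between the effects was 1.69 ± 0.63 (adjusted p = 0.102), and 2.78 without ESC Grb10 pA replicate 3 (adjusted p = 0.0361). En2 overlapped between ESC Grb10 pA and ESC WT, with a log2 fold change of 0.02 ± 0.25 (adjusted p = 0.977).

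Gbx2 of the Grb10 pA line fell upon differentiation, from 28.0 to 28.7 CPM in ESCs to 13.5 to 23.2 CPM in NPCs (log2 fold change -0.72 ± 0.15, edgeR adjusted p = 0.00027). Otx2 rose (6.41 ± 0.28, edgeR adjusted p = 1.3e-16), so that 2 of 3 members were dysregulated, beside 34.6% of all genes. In the Podxl pA line, 2 of 3 members were dysregulated in NPCs relative to ESCs, beside 31.8% of all genes. These were Otx2 (4.96 ± 0.27, edgeR adjusted p = 2.7e-14) and En2 (0.63 ± 0.23, adjusted p = 0.0308). En2 lost that call with DESeq2 (adjusted p = 0.0622) and without ESC Podxl pA replicate 1 or 3 or NPC Podxl pA replicate 2 or 3 (adjusted p up to 0.184). Gbx2 passed the p cutoff there but not the fold change cutoff (0.39 ± 0.15, adjusted p = 0.0379).

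The antisense D130058E05Rik did not follow Gbx2 in the Grb10 pA line. It was at 8.72, 10.2 and 11.6 CPM in NPC Grb10 pA and at 5.83, 6.88 and 7.41 CPM in NPC WT, without overlap and in the direction opposite to Gbx2, though it did not pass the test (log2 fold change 0.61 ± 0.24, adjusted p = 0.0596). In ESC Grb10 pA relative to ESC WT its log2 fold change was -0.07 ± 0.25 (adjusted p = 0.893).

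In NPC Grb10 pA relative to NPC WT, where 16.5% of all genes were dysregulated, 4 of 9 genes of the hindbrain list fell and none rose. Their median log2 fold change was -0.59 over the 9 genes, beside 0.01 over all genes. Hoxb1 went from 10.7 to 5.59 CPM (-0.96 ± 0.24, edgeR adjusted p = 0.0044) and Irx3 from 10.2 to 5.82 CPM (-0.84 ± 0.26, adjusted p = 0.0172), and Fgf3 and Hoxa2 fell too. Irx3 lies on chromosome 8, whose genes had a median of -0.48 in this comparison, and once that shift was taken off Irx3 was not called (-0.36 ± 0.26, adjusted p = 0.330) and 3 of 9 hindbrain genes fell. Pax6, a forebrain and hindbrain factor, fell (-1.12 ± 0.31, adjusted p = 0.0073), while Cnpy1 rose (0.80 ± 0.21, adjusted p = 0.0054). Sox1 was at 22.1, 24.5 and 30.4 CPM against 74.1 to 83.8 CPM in NPC WT (-1.66 ± 0.12, edgeR adjusted p = 1e-10), or -1.17 once the shift of chromosome 8, where it lies, was taken off (adjusted p = 5.8e-08), and Nes fell (-1.40 ± 0.16, adjusted p = 2.8e-07). The neural progenitor markers summed to 48.4 to 58.8 CPM against 109 to 128 CPM, with Hes5 and Fabp7 at 0. The endoderm markers summed to 603 to 774 CPM against 726 to 979 CPM, with 3 of 10 lower, and the mesoderm markers to 71.8 to 88.7 CPM against 38.5 to 45.2 CPM, with 2 of 3 tested higher. The naive pluripotency markers summed to 543 to 617 CPM against 401 to 468 CPM. Of these 9, 3 rose (Esrrb, Nanog and Tfcp2l1) and 2 fell (Klf4 and Klf2). The part of these markers in the changes of the members was not tested.

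The remaining members were low. Otx1, the paralog of Otx2, had 7 to 33 counts in each rescue library and 0 to 6 in each truncation library. It was at 1.07 and 1.57 CPM in ESC-WT, 1.62 and 1.76 CPM in ESC-ΔZF1, 1.10 and 1.89 CPM in NPC-WT and 0.699 and 1.16 CPM in NPC-ΔZF1, and no comparison called it. Unlike Otx2, it was not higher in NPC-WT than in ESC-WT (log2 fold change 0.04 ± 0.44), with overlapping groups. Its log2 fold change in NPC-ΔZF1 relative to NPC-WT was -0.61 ± 0.40 (adjusted p = 0.308), and -0.04 once the median shift of chromosome 11 was taken off.

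En1, which acts with En2 at the isthmus, had 4 to 23 counts per library in the rescue lines. It was at 0.587 and 0.611 CPM in ESC-WT, 0.975 and 1.29 CPM in NPC-WT and 0.388 and 0.662 CPM in NPC-ΔZF1. The last of these was not past the test relative to NPC-WT (log2 fold change -1.07 ± 0.44, adjusted p = 0.113), though the groups did not overlap. In the truncation lines En1 was at 0 in 11 of 18 libraries. All 3 NPC Podxl pA libraries had counts (3, 6 and 2), while the 3 NPC WT libraries had 0, which allows up to 3 counts each, and without the filter on low counts the comparison gave an adjusted p of 0.296.

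Egr2, the hindbrain factor of rhombomeres, was close to the limit of detection. It had 0 and 2 counts in ESC-WT, 1 and 4 in ESC-ΔZF1, 19 and 8 in NPC-WT and 21 and 16 in NPC-ΔZF1. It passed the test for NPC-WT relative to ESC-WT (2.98 ± 0.85, edgeR adjusted p = 0.0151) and for NPC-ΔZF1 relative to ESC-ΔZF1 (1.88 ± 0.66, adjusted p = 0.0423). DESeq2 called neither (adjusted p = 0.0770 and 0.213). The first call was lost without either ESC-WT library (2.48 and 6.78), and the second without any 1 of its 4 libraries (1.26 to 3.02) and with a replicate block (1.88, adjusted p = 0.0588). ΔZF1 and WT NPCs did not differ beyond their spread (-0.19 ± 0.48, adjusted p = 0.809). In the truncation lines Egr2 was at 0 in all 9 ESC libraries and had 0 to 4 counts in the 9 NPC libraries.

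Pax2, Pax5 and Pax8, the paired box genes of the isthmus, could hardly be seen at this depth. Pax2 had 2 to 19 counts in a rescue library and 0 to 6 in a truncation library. Its highest counts were the 19 and 16 of NPC-ΔZF1, or 0.670 and 0.589 CPM against 0.297 and 0.344 CPM in NPC-WT. Pax5 had 0 to 8 counts in every library, and Pax8 0 to 9. With no filter on low counts, 69 fits of members that had been left out gave 1 call, a fall of Pax8 in NPC Grb10 pA relative to ESC Grb10 pA (log2 fold change -2.00, adjusted p = 0.0316), from 9, 3 and 5 counts to 3, 3 and 0. At an unadjusted p under 0.05 there were 9 such fits.

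**Figure D5:**
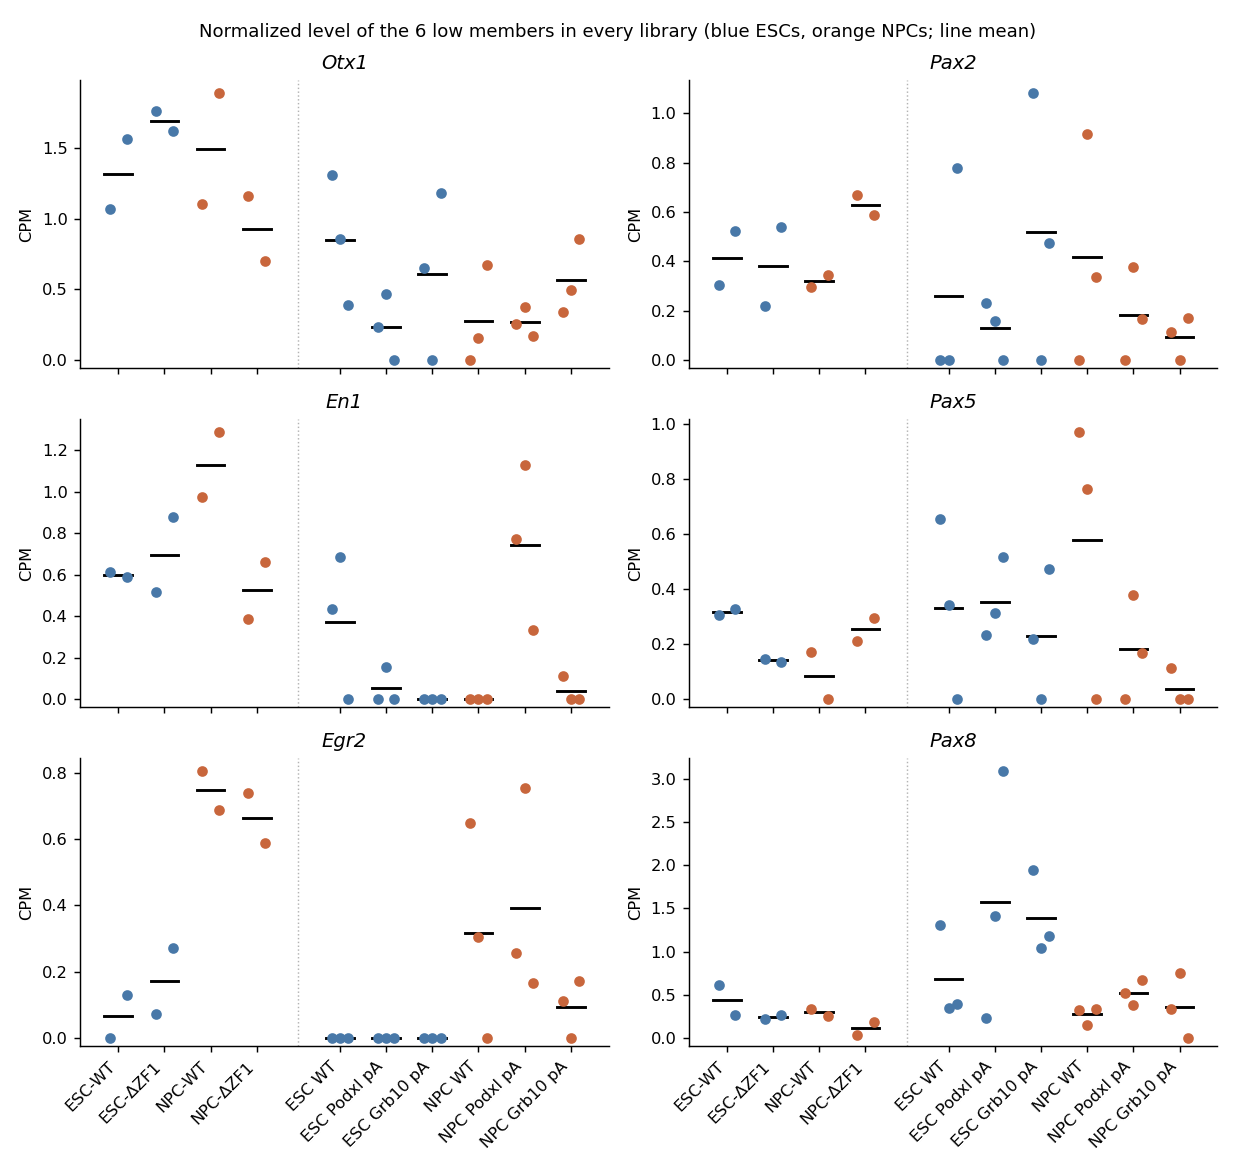
Level of Otx1, En1, Egr2, Pax2, Pax5 and Pax8 in CPM (vertical axes) in every library of the 10 groups (horizontal axis, rescue lines left of the dotted line), with blue points for ESCs, orange points for NPCs and lines for group means. Egr2 is at 0 in the 9 ESC libraries of the truncation lines and highest in NPC-WT, and most libraries of the truncation lines have few or no counts on these genes.

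The genes whose levels most resembled those of the members were looked up over the 26 libraries after the mean of each table had been removed, among 13225 genes that passed the filter in both tables. These points share 2 cell states and few lines, so that any gene that differs between ESCs and NPCs of each line as the member does scores high. For Otx2 the closest genes were Igfbp3 (Pearson's r = 0.985), the DNA methylation regulator Dnmt3l (0.976) and the POU factor Pou3f1 (0.976). For Gbx2 they were the Fgf feedback inhibitor Spry2 (0.943), Abcc4 (0.939) and Tafa4 (0.891), and for En2 Dctpp1 (0.881), Bahcc1 (0.872) and Mkrn1 (0.861).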

How the data were processed

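RNA was sequenced from rRNA-depleted libraries of 26 samples, grouped as their labels say. Alignment (STAR, mm10) and counting on genes (featureCounts, strand ignored) were done by the authors, who deposited whole-number counts that are not normalized. The gene annotation behind the counting is not given in the sources used here. Another 3 columns of the truncation table match no sample and were not used.

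The tables were analysed separately in R 4.3.3 with the quasi-likelihood F test of edgeR 4.0.16, a mean for each group, TMM factors and edgeR's own low-count filter, which left 16641 and 13268 genes. Dysregulated means an adjusted p (Benjamini-Hochberg, all genes tested) of at most 0.05 with a log2 fold change of 0.5 or more either way, the cutoffs the authors used with DESeq2. Effects in NPCs and ESCs were compared as a contrast of 4 group means. All p-values are two-sided, and SEs were obtained by dividing log2 fold changes by the square root of F. RPKM uses the exon bases of GENCODE M21. On simulated counts, 84.5% of 200 changed genes were found for NPC-ΔZF1 against NPC-WT and 90% for NPC Podxl pA against NPC WT. False calls made up 8.65% and 4.26%. The changed genes found had a median absolute log2 fold change of 1.55 and 1.51. These shares do not apply to smaller changes, which were not simulated. In the simulation a gene varied alike in all groups, while the NPC-WT libraries stood further apart than those of the other rescue groups. The shares do not cover that spread.

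The members and gene lists were chosen with earlier results of these data known. The hindbrain list was shortened by 2 genes, not reported here, after the values were seen. All 9 members were described in all comparisons. Up to 3 genes of a list were named by their fold change if dysregulated, with 20 or more normalized counts on average and no overlap of the groups. Other list genes are named because they stand behind a printed count, and D130058E05Rik because of its overlap with Gbx2, both after their values were seen. Alternatives tried were DESeq2 1.42.0, RLE normalization, no filter, a minimum of 10 counts per library, fits without the other groups, a replicate block, an adjusted p of 0.01, no fold change cutoff, leaving out each library, and taking off the median shift of chromosome 11 (ΔZF1) or 8 (Grb10 pA).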

Additional observations from a re-analysis of the deposited data

Results flagged for a closer look

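The effect of Grb10 pA on Gbx2 differed between NPCs and ESCs by -1.78 ± 0.21 on the log2 scale in a test of the difference itself (edgeR adjusted p = 1.4e-05), with Gbx2 higher than WT in 3 of 3 ESC libraries and lower in 3 of 3 NPC libraries. The effect of ΔZF1 on En2 differed between NPCs and ESCs by 1.58 ± 0.31 (edgeR adjusted p = 0.0268), with En2 lower than WT in 2 of 2 ESC libraries and higher in 2 of 2 NPC libraries. The rise of En2 in NPCs did not itself pass the test (log2 fold change 0.59, edgeR adjusted p = 0.11). The call of the difference was lost at an adjusted p cutoff of 0.01. It was also lost without any single library of ESC-WT, ESC-ΔZF1 or NPC-ΔZF1. With any library left out, the difference lay between 1.22 and 1.89. Gbx2 went in opposite directions upon differentiation of the WT lines, with a log2 fold change of -2.44 in the WT rescue line and 1.06 in parental E14 cells, and all NPC libraries were on 1 side of all ESC libraries in each; that difference was not tested, since the tables were normalized separately and the lines differ in genotype and treatment.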

How the results depend on the processing

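Besides the fits with a library left out, 430 values of single members under the alternatives kept their direction and their side of the cutoffs, 11 lost the call and 4 gained it. The number of members dysregulated moved by more than 1.5 times as follows. At an adjusted p of 0.01 it was 0 for ESC-ΔZF1 relative to ESC-WT, 0 for the difference between the effects of ΔZF1 and 1 for NPC Podxl pA relative to ESC Podxl pA. With at least 10 counts in every library it was 2 for NPC-ΔZF1 relative to NPC-WT, and 1 for each of the 3 truncation lines as NPCs relative to ESCs, where Otx2 was no longer tested. Without a filter it was 2 for the difference between the effects of ΔZF1, with only the groups compared 1 for NPC Podxl pA relative to NPC WT, and with DESeq2 1 for NPC Podxl pA relative to ESC Podxl pA. With a library left out, it was 0 for ESC-ΔZF1 relative to ESC-WT, 1 to 3 for NPC-ΔZF1 relative to NPC-WT, 0 to 3 for the difference between the effects of ΔZF1, 1 to 2 for NPC Podxl pA relative to ESC Podxl pA and 1 to 2 for the difference between the effects of Grb10 pA; where this leaves a group with 1 library, that library is assumed to vary like the other groups. The cause was not tested.

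No called value changed sign. Uncalled values that did so with a library left out had these log2 ranges. For ΔZF1 in ESCs they were -0.24 to 4.73 (Egr2) and -0.18 to 0.56 (En1), for the difference between its effects -4.92 to 0.047 (Egr2), and for Otx1 in NPC-WT relative to ESC-WT -0.33 to 0.45. For En2 they were -0.14 to 0.13 with Grb10 pA in ESCs, -0.56 to 0.0030 with Podxl pA in ESCs, -0.24 to 0.18 with Podxl pA in NPCs and -0.060 to 0.52 for the difference between the last 2. For Otx2 they were -0.56 to 0.40 with Podxl pA in ESCs and -0.34 to 0.62 for the difference between the effects of Podxl pA.

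Replicate numbers are shared between groups, but libraries with the same number did not deviate together, with correlations between -0.137 and 0.132 in the rescue lines and between -0.209 and 0.154 in the truncation lines, so the numbers do not pair the libraries. With a replicate block, 3 members rather than 4 were dysregulated in NPC-ΔZF1 relative to ESC-ΔZF1, Egr2 being lost (log2 fold change 1.88, adjusted p = 0.0588), and no other call of a member changed.

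Depth limits the low members most, since 3 counts stand for up to 1.55 CPM in the shallowest library, and Pax2, Pax5 and Pax8 were tested in neither table.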
